A study of Homo sapiens with 24 samples.

Results

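The comparison described here sets feeder-supported against feeder-free human embryonic stem cells, both given 250 nM AZD3965, an inhibitor of the monocarboxylate transporter MCT1, for 5 days. The comparison covers all genes with a probe set of their own, 19775 on this array design, and it rests on 6 of the 24 arrays of the study. The lines H1, H9 and HSF1 each gave 1 array in either culture system. Feeder-supported cells grew on a layer of mouse embryonic fibroblasts, and feeder-free cells grew without that layer. The same lines and culture systems with the vehicle DMSO, on 6 other arrays, were used to ask whether the culture difference was the same without inhibitor and in those alternative fits that covered all 12 arrays. All 12 arrays hold total RNA of lines that are established and pluripotent by label, and each line gave a single array for a given culture system and treatment. The values are log2 levels from Affymetrix U133 Plus 2.0 arrays, and precision is limited by how few arrays there are. The arrays were taken by their titles.

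Human pluripotent stem cells in culture resemble the primed epiblast and depend on FGF and on Nodal or Activin signals. A feeder layer releases growth factors and matrix proteins into the medium. MCT1 carries lactate and pyruvate across the plasma membrane together with a proton, so cells that make lactate from glucose use it as an exit route.

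Libraries and labels were checked first. Interquartile ranges were 2.84, 2.83 and 2.45 on feeder-supported H1, H9 and HSF1 arrays, against 3.30, 3.21 and 3.20 on feeder-free arrays. With DMSO they were 2.85, 2.66 and 2.45, against 3.22, 3.08 and 3.15. The range was thus narrower on feeders in every line, and its part in the differences below was not tested. The feeder-supported HSF1 array stood apart, with the narrowest range of the 6 arrays and correlations with the other 5 of 0.875 to 0.934. Its difference between the 3-prime and 5-prime control probe sets of ACTB, a measure of RNA quality, was -0.31, against 0.44 to 1.19 on the others. On the feeder-supported HSF1 array with DMSO this ACTB difference was -0.15. Of 10 pluripotent stem cell markers 8 could be measured, and their log2 levels ran from 9.17 to 13.6 on feeders and from 10.2 to 13.7 without. Of the fibroblast markers, 38 of 38 were measured. Their summed linear level was 76800, 48800 and 49500 in feeder-supported H1, H9 and HSF1, against 21600, 17300 and 25400 in the feeder-free arrays of these lines. FAP, a fibroblast surface protease, stayed below a log2 level of 5 on all feeder-free arrays. The part of mouse fibroblast RNA in any rise on feeders was not tested, and in bulk RNA fewer cells of a type and less RNA per cell cannot be told apart.

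Between culture systems 4177 of 16708 tested genes differed with the inhibitor present (25.0%), 1569 of them higher (9.39%) and 2608 lower (15.6%) on feeders. Counts in the gene lists described below are to be read beside these shares. The test was limma on the 6 arrays with the line as a block, at a Benjamini-Hochberg adjusted p under 0.05. At least 2-fold changes were seen for 429 higher and 1915 lower genes, and 4078 of the 4177 genes moved the same way in 3 of 3 lines. On 9342 genes (55.9%) the feeder-supported and feeder-free arrays did not overlap. The median difference over all tested genes was -0.23 on the log2 scale, and -0.10, -0.12 and -0.38 in H1, H9 and HSF1. It was 0.03 after quantile normalization, with 646 genes past the threshold (3.87%), and -0.35 with arrays at a common median. When H1, H9 and HSF1 were left out in turn, 198, 812 and 5754 genes passed. With 2 residual degrees of freedom per gene, limma set the spread of most genes close to the average at their level. The SD over the 3 lines is therefore given with many of the differences below, but not with all. Across all 15 alternatives that could test them, 129 genes kept their call and direction.

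**Figure D1:**
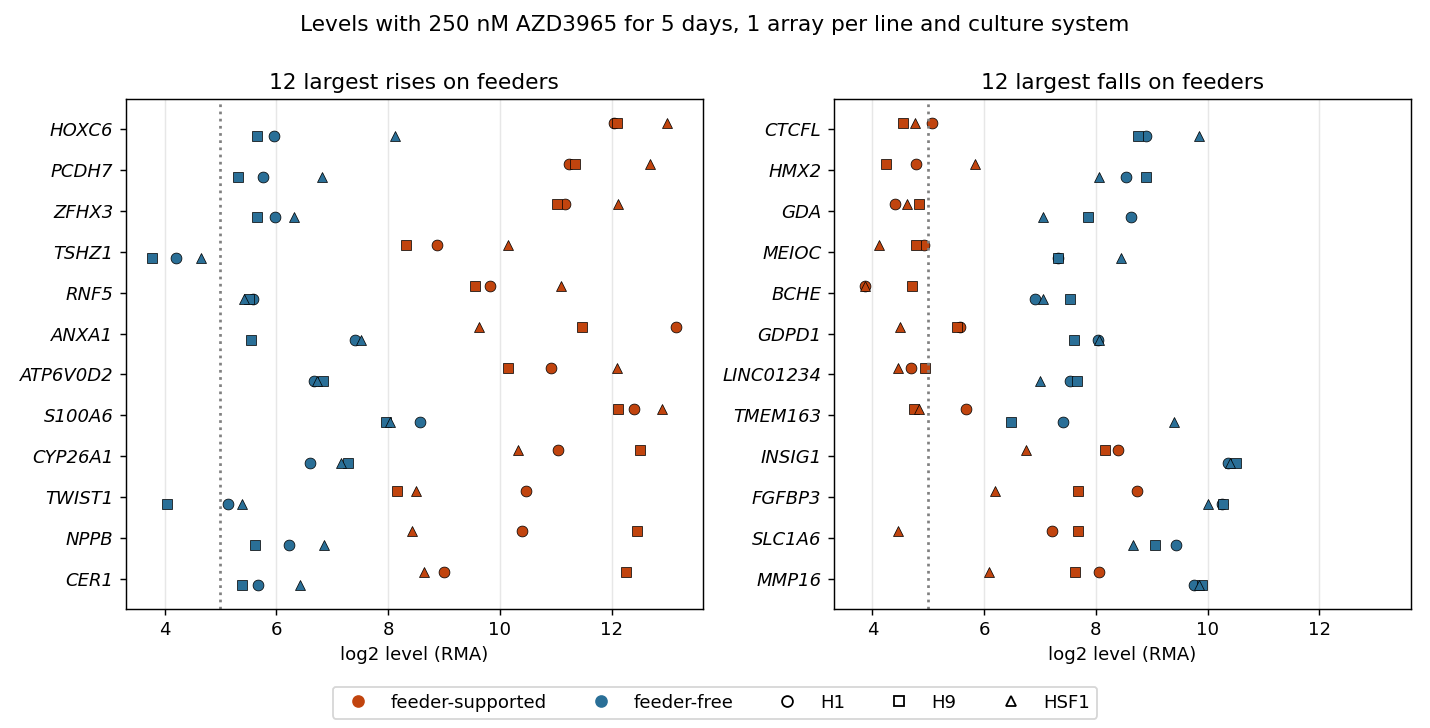
Log2 level on each of the 6 arrays with inhibitor for the 12 genes with the largest rise (left panel) and the 12 with the largest fall (right panel). Orange marks are feeder-supported and blue marks feeder-free arrays, the shape gives the line, and the dotted line is a level of 5, under which values are close to background. In no gene shown do the orange and blue marks overlap.

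The 12 largest rises on feeders included HOXC6, PCDH7, ZFHX3, TSHZ1, RNF5 and ATP6V0D2. HOXC6, a homeobox factor that sets position along the body axis, had log2 levels of 12.05, 12.09 and 12.99 on feeder-supported H1, H9 and HSF1 arrays, against 5.96, 5.66 and 8.13 on the feeder-free arrays. All feeder-supported arrays lay above all feeder-free arrays, and HSF1 was highest in both systems. The difference was 5.79 ± 0.83 (SD over 3 lines), or 55.4-fold, and the highest limma adjusted p over 15 alternatives was 0.00148. PCDH7, a protocadherin, differed by 5.79 ± 0.29 with 1 of its 5 probe sets, while the other 4 gave -0.04 to 1.67. The zinc-finger homeobox factor ZFHX3 differed by 5.45 ± 0.32, with 0.41 to 3.24 from its other 5 probe sets. TSHZ1, a teashirt-family zinc-finger factor, was at 8.87, 8.33 and 10.14 on feeders and at 4.21, 3.78 and 4.66 without. Its feeder-free levels lay near background, so its difference of 4.90 ± 0.51 gives no exact fold. The ubiquitin ligase gene RNF5 (4.65 ± 0.89) and ATP6V0D2, a subunit of the proton pump that acidifies organelles (4.30 ± 1.03), were also much higher on feeders and highest in HSF1. RNF5 rested on 1 probe set, with low feeder-free levels of 5.58, 5.51 and 5.43 in H1, H9 and HSF1.

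S100A6, ANXA1, TWIST1 and CYP26A1 were also among these 12 genes. S100A6, a calcium-binding protein abundant in fibroblasts, was at 12.40, 12.11 and 12.91 on feeders, against 8.57, 7.97 and 8.03 without. The lines were close to each other within each system, and the difference was 4.28 ± 0.54. ANXA1, a phospholipid-binding annexin, was at 13.16, 11.47 and 9.63 on feeders and at 7.41, 5.54 and 7.51 without, which made the difference 5.76 in H1, 5.93 in H9 and 2.12 in HSF1. TWIST1, a basic helix-loop-helix factor of mesenchyme, rose by 4.19 ± 1.11, from 1 probe set. CYP26A1, the enzyme that degrades retinoic acid, was at 11.04, 12.51 and 10.33 on feeders, against 6.60, 7.28 and 7.16 without (4.28 ± 1.04). All 12 genes with the largest rise kept their call in every alternative that could be run on them, and the highest adjusted p among these fits was 0.0422, for CER1.

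HOXC6 was not alone among the HOX genes, the clustered homeobox factors of axial patterning. Of 22 tested members 14 rose and 0 fell, with a median of 0.80, against -0.23 over all genes. The per-line medians were 0.66, 0.62 and 1.19 in H1, H9 and HSF1. HOXB6 was at 7.44, 7.57 and 8.38 on feeders and at 4.29, 4.16 and 4.48 without, a difference of 3.48 ± 0.38 with the lower group near background. HOXD10 (2.23 ± 0.74), HOXB8 (2.16 ± 0.32), HOXC4 (1.99) and HOXB7 (1.59) rose too. The differences of the members that did not pass ran from 0.31 for HOXD1 to 0.79 for HOXC11. After quantile normalization the list median was 0.96 and 5 members rose, and without H1, H9 and HSF1 in turn 6, 8 and 14 rose. The levels of most HOX genes were low in both systems, 12.99 for HOXC6 being the highest and 8.84 for HOXC4 the next.

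NODAL and its inhibitors LEFTY1 and CER1 were higher on feeders, as 3 of 13 genes of the Nodal and TGF-beta list (23.1%), while 2 were lower (15.4%). Over all tested genes 9.39% were higher and 15.6% lower. NODAL, the ligand, was at 10.45, 10.95 and 10.35 on feeder-supported arrays, against 8.10, 7.37 and 7.78 on feeder-free arrays (2.83 ± 0.66). Its inhibitor LEFTY1 was at 12.59, 12.19 and 12.03, against 9.57, 9.73 and 9.01 (2.83 ± 0.33). The groups were far apart for both genes in every line, and the highest adjusted p over 15 alternatives was 0.0146 for NODAL and 0.00648 for LEFTY1. For NODAL 2 of 3 probe sets shared the direction. CER1, a secreted inhibitor of Nodal and BMP, was at 9.01, 12.25 and 8.64 on feeders and at 5.68, 5.38 and 6.42 without. Its difference was 6.87 in H9, 3.33 in H1 and 2.22 in HSF1 (4.14 ± 2.43). The receptor genes TGFBR2 and ACVR2B fell by 1.03 ± 0.73 and 1.12, TGFBR2 on 1 of its 2 probe sets. The list median was -0.15 (0.34 after quantile normalization). Without H1, and without H9, 3 rose and 0 fell.

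Of the BMP list 5 of 13 genes rose (38.5%) and 2 fell (15.4%), and of the WNT list 4 of 15 rose (26.7%) and 0 fell. Over all tested genes 9.39% rose and 15.6% fell. BMP2 was at 8.80, 11.17 and 7.88 on feeders and at 6.99, 6.57 and 7.36 without, so that the difference was 4.60 in H9, 1.82 in H1 and 0.52 in HSF1. BMP4, a ligand of the same receptors, rose by 1.46 ± 0.60 and BMP7 by 1.03. The BMP antagonists GREM1 (1.81 ± 3.50) and NOG (0.96 ± 0.91) also passed. GREM1 was higher on feeders in H1 and H9 and lower in HSF1 (-2.22), and it kept its call in 4 of 15 alternatives, with an adjusted p up to 0.492. NOG, at low levels in both systems, differed by -0.07 in HSF1. It kept its call in 7 of 14 alternatives, with a limma adjusted p up to 0.456. ID2 and ID3, direct targets of BMP signalling, fell by 1.25 and 1.04. Without H1, H9 and HSF1 in turn 1, 0 and 9 BMP genes rose and 0, 0 and 2 fell. DKK4, a secreted WNT inhibitor induced by the pathway, was at 6.05, 8.67 and 6.91 on feeders and at 4.70, 4.80 and 4.76 without (2.46 ± 1.29). The target gene SP5 rose by 2.02 ± 1.16 and the ligands WNT5A and WNT5B by 1.08 ± 1.61 and 0.99 ± 0.78, while AXIN2, a feedback inhibitor, differed by 0.22 and did not pass. WNT5A was lower on feeders in HSF1 (-0.76). In fits that lacked H1, H9 and HSF1 in turn, 2, 2 and 5 WNT genes rose.

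Of 16 primitive streak and endoderm genes 11 rose and 0 fell. The list median was 0.98, and it was 0.54, 1.61 and 1.22 in H1, H9 and HSF1. EOMES, a T-box factor of streak and definitive endoderm, was at 9.02, 11.40 and 8.82 on feeders and at 5.93, 5.45 and 6.97 without. All feeder-supported arrays were above all feeder-free arrays, and the difference was 5.95 in H9, 3.09 in H1 and 1.84 in HSF1 (3.63 ± 2.10, highest adjusted p 0.0378 over 15 alternatives). CXCR4, a chemokine receptor of endoderm, rose by 2.58 ± 1.54, SOX17, an endoderm factor, by 2.29 ± 1.74, and MIXL1, a homeobox factor of the streak, by 1.90 ± 1.29. Each of these differences was largest in H9. TBXT (1.52), GSC (1.42) and LHX1 (1.31), markers of streak and organizer, were among the others, while FOXA2 (0.32), GATA6 (0.46) and MESP1 (0.27) did not pass. The feeder-free levels of SOX17 and GSC were all under 5. After quantile normalization 4 members rose with a median of 1.00, and without H1, H9 and HSF1 in turn 5, 4 and 11 rose. NPPB, a natriuretic peptide gene outside this list, differed by 6.84 in H9, 4.16 in H1 and 1.55 in HSF1.

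**Figure D2:**
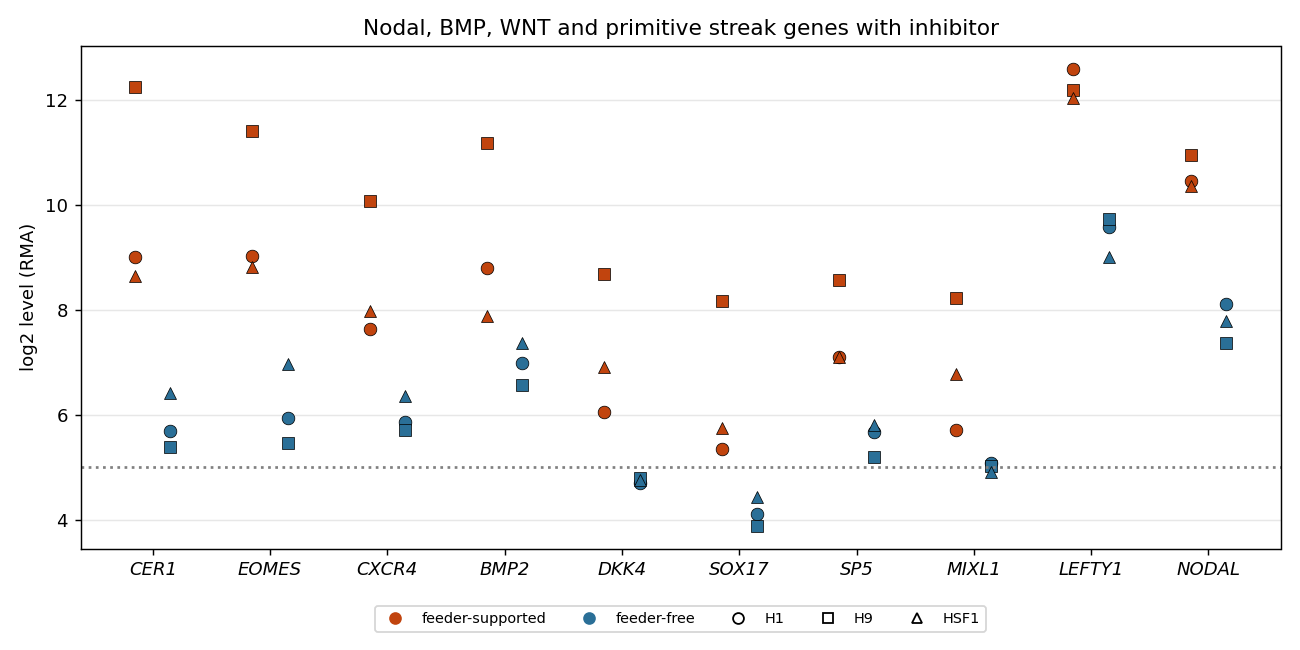
Log2 levels of 10 Nodal, BMP, WNT and primitive streak genes on the 6 arrays with inhibitor, feeder-supported in orange to the left of feeder-free in blue, with the line given by the shape and a dotted line at 5. The feeder-supported H9 array is the highest for CER1, EOMES, CXCR4, BMP2, DKK4, SOX17, SP5, MIXL1 and NODAL, and LEFTY1 is highest in H1.

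Some markers of the primed state were lower and some of the naive state higher on feeders. Of 15 primed-state genes 9 fell and 0 rose, and the median was -0.98 (-0.56 in H1, -0.38 in H9 and -1.62 in HSF1). SFRP2, a secreted WNT modulator, was at 11.20, 11.26 and 10.22 on feeders, against 12.23, 12.45 and 12.08 without (-1.36 ± 0.44). PTPRZ1, a receptor phosphatase, SOX11, a neural SOX factor, SALL2 and ZIC2 fell by 1.21, 1.27, 1.10 and 0.98. DNMT3B, the de novo DNA methyltransferase, differed by -0.32 and did not pass. Of 15 naive-state genes 5 rose and 0 fell (median 0.67). KLF5, a Krüppel-like factor, was at 8.07, 7.94 and 7.16 on feeders and at 6.16, 6.18 and 6.03 without (1.60 ± 0.41). NLRP7, a maternal-effect gene, TFAP2C, FGF4 and DPPA5 rose by 1.50 ± 1.12, 1.30 ± 0.97, 1.14 ± 0.45 and 0.80. In HSF1 the difference of TFAP2C was 0.18. KLF17 (0.66), TFCP2L1 (-0.08) and ESRRB (0.48) did not pass. Counts depended on the lines in both lists. Without H1, H9 and HSF1 in turn 0, 0 and 11 primed-state genes fell and 0, 2 and 8 naive-state genes rose.

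Part of the general pluripotency network fell. Of 16 core genes 6 fell and 0 rose, at a median of -0.58, or -0.31 after quantile normalization. SOX2 was at 12, 11.86 and 11.62 on feeders, against 12.61, 12.49 and 12.65 without (-0.76 ± 0.24, limma adjusted p = 0.0213). NANOG was at 12.36, 12.38 and 11.94, against 12.21, 12.31 and 12.46, so that the groups overlapped and the difference was -0.10 ± 0.36 (adjusted p = 0.758). FOXD3, a forkhead factor, fell by 1.74 ± 0.78, on 2 of 3 probe sets, and the telomere-binding TERF1 by 1.05 ± 0.29. USP44, DPPA4 and L1TD1 fell by 1.13, 0.72 and 0.63. When H1, H9 and HSF1 were left out in turn, 0, 1 and 9 core genes fell. The feeder-supported HSF1 array, which stood apart, had the lowest level of SOX2, NANOG, FOXD3, TERF1, USP44 and L1TD1.

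The 12 largest falls, INSIG1 among them, began with CTCFL and HMX2. CTCFL, the testis paralogue of the chromatin factor CTCF, was at 5.07, 4.55 and 4.76 on feeders, against 8.90, 8.75 and 9.84 without (-4.37 ± 0.64). HMX2, a homeobox factor of the inner ear and hypothalamus, was at 4.77, 4.24 and 5.83, against 8.53, 8.90 and 8.06 (-3.55 ± 1.23). The feeder-supported levels of both were near background, which leaves no exact fold. GDA, a guanine deaminase, fell by 3.23 ± 0.90, MEIOC, a meiosis factor, by 3.09 ± 1.07 and BCHE, butyrylcholinesterase, by 3.01 ± 0.17. Of 5 MEIOC probe sets 3 shared the direction, and the second probe set of GDA gave -0.16. FGFBP3, which binds and releases FGF, was at 8.74, 7.67 and 6.19 on feeders and at 10.25, 10.28 and 10 without (-2.64 ± 1.15). GDPD1 and LINC01234 fell by 2.71 ± 0.76 and 2.70 ± 0.16. The zinc transporter gene TMEM163, the glutamate transporter gene SLC1A6 and the metalloprotease gene MMP16 fell by 2.68 ± 1.63, 2.60 ± 1.46 and 2.57 ± 1.06. TMEM163 kept its call in 13 of 14 alternatives and SLC1A6 in 12 of 15, while the other genes named in this paragraph kept theirs in all alternatives run on them.

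Of 19 FGF and ERK genes 4 fell and 1 rose, or 21.1% and 5.26%, against 15.6% and 9.39% of all tested genes. ETV5, ETV1 and DUSP6, which are induced by this pathway, fell by 1.70 ± 0.84, 1.43 and 1.21 ± 0.42. ETV5 fell on 3 of 5 probe sets and kept its call in 10 of 15 alternatives. DUSP6 fell on 3 of 3 and kept its call in 12 of 15. EGR1, an immediate-early factor, was at 10.25, 10.33 and 12.01 on feeders, against 7.99, 8.06 and 8.51 without (2.68 ± 0.72). It was higher in 3 of 3 lines and on 3 of 3 probe sets, and its highest adjusted p over 15 alternatives was 0.0135. FGFBP3 was the other gene that fell, and the list median was -0.60. SPRY1, SPRY2 and SPRY4, feedback inhibitors, differed by -0.89, -0.60 and -0.76 and did not pass. In fits that lacked H1, H9 and HSF1 in turn, 1, 1 and 8 genes fell and 1, 1 and 5 rose.

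Sterol synthesis genes were lower on feeders, and their promoters are shown here because the list had the lowest median over the 3 lines and the regulators of these genes bind close to their start sites. SREBP factors activate them together with NF-Y, which binds the motif CCAAT, or ATTGG on the opposite strand. The RefSeq promoters (GRCh38.p14) span 250 bases before to 50 after a start, are written 5′ to 3′ on the gene's strand, and have the motif on either strand in capitals. INSIG1 is at chr7:155297628-155297927 on the plus strand, HMGCS1 at chr5:43313363-43313662 and STARD4 at chr5:111512486-111512785, both on the minus strand. A second HMGCS1 start in the table has no such motif.
INSIG1: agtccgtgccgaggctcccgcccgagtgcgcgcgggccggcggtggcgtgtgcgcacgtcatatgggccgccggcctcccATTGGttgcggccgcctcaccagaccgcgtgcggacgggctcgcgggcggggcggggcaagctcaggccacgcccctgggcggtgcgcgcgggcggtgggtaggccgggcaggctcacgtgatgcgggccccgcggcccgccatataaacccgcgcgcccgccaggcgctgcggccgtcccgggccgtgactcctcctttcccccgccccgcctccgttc
HMGCS1: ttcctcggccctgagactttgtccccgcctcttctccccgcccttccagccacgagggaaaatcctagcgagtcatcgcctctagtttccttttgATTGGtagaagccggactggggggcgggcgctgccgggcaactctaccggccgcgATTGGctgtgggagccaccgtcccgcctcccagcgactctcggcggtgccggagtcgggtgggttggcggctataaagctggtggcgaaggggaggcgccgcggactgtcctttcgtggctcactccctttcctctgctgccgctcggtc
STARD4: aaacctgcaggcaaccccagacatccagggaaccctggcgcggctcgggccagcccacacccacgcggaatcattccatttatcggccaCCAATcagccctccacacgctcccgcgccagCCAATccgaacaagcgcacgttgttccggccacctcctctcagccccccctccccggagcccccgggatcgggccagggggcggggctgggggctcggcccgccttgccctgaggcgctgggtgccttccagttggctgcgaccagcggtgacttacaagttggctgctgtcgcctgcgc
CCAAT or ATTGG was found in the promoter of 16 of 17 tested sterol genes with a table entry (94.1%) and of 12 of 12 that fell, against 5537 of 13175 tested genes (42.0%). Among fatty acid genes it was found in 10 of 14 (71.4%). A match is a description of the letters and not of binding.

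INSIG1, which holds the SREBP complex in the endoplasmic reticulum when sterols are plentiful and is itself an SREBP target, was at 8.39, 8.16 and 6.74 on feeder-supported arrays. On feeder-free arrays it was at 10.37, 10.51 and 10.39. The groups did not overlap, and INSIG1 was 6.31-fold lower on feeders (-2.66 ± 0.87), with a highest adjusted p of 0.011 over 15 alternatives. HMGCS1, the enzyme that makes HMG-CoA, was at 10.36, 9.94 and 9.95, against 11.89, 11.46 and 11.56. Its 3 lines agreed most closely of the sterol genes described, with differences of -1.53, -1.52 and -1.61. STARD4, a sterol carrier, was at 9.07, 8.86 and 7.73, against 10.19, 10.20 and 10.27 (-1.67 ± 0.77), and LSS, the cyclase that forms lanosterol, fell by 1.73 ± 0.42. Of 19 sterol genes 14 fell and 0 rose, and the median was -1.18, or -0.94 in H1, -1.08 in H9 and -1.61 in HSF1. SC5D, ACAT2, DHCR7, NSDHL, TM7SF2, SQLE, MSMO1, EBP, FDPS and IDI1, all enzymes of the pathway, fell by 1.35 to 0.93. HSD17B7, PMVK, MVD, SREBF2 and MVK differed by -0.76, -0.61, -0.51, -0.43 and 0.65 and did not pass. After quantile normalization 8 fell with a median of -0.80, and without H1, H9 and HSF1 in turn 1, 1 and 17 fell.

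Fatty acid synthesis followed the same direction. FASN, the fatty acid synthase, was at 9.27, 8.98 and 7.68 on feeders, against 10.74, 11.06 and 9.52 without (-1.80 ± 0.31), but its second probe set gave 0.76. SCD, the stearoyl-CoA desaturase, was at 12.10, 12.27 and 11.40, against 13.18, 13.11 and 12.96, and fell on 4 of 4 probe sets (-1.16 ± 0.37). ACACA, the acetyl-CoA carboxylase of cytosolic synthesis, ACLY, which makes cytosolic acetyl-CoA from citrate, ACSS2, which makes it from acetate, and the elongase ELOVL6 fell by 1.47, 0.97, 1.14 and 1.02. ACACB, the mitochondrial carboxylase, and SREBF1 differed by 0.74 and -0.73 and did not pass. In all 9 of 15 fell and 0 rose (median -0.88, against -0.50 with the mean of all probe sets). Without H1, H9 and HSF1 in turn 0, 0 and 10 fell.

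**Figure D3:**
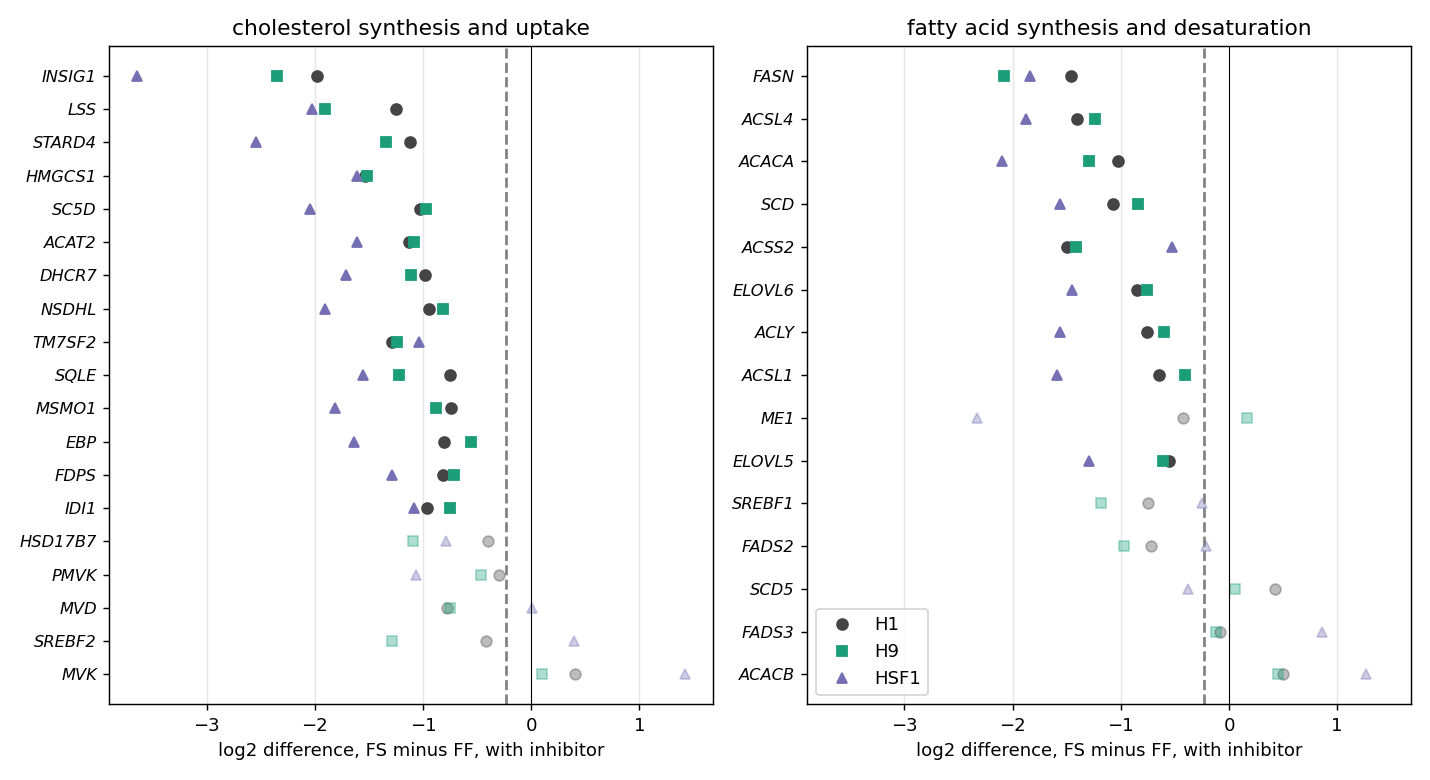
Log2 difference, feeder-supported minus feeder-free with inhibitor, for each tested gene of sterol synthesis and uptake (left) and of fatty acid synthesis (right), 1 mark per line. Full marks are genes past the threshold, pale marks the others, and the dashed line is the all-gene median of -0.23. In the left panel the marks of genes past the threshold all lie below 0, and HSF1 is often the lowest.

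Genes of glucose and lactate use showed smaller differences. Of 19 glycolysis genes 5 fell and 0 rose, and the median was -0.39 (-0.06 in H1, -0.44 in H9 and -0.80 in HSF1), or -0.14 after quantile normalization. ENO2, the neuronal enolase, ALDOC, an aldolase, GPI, the glucose-6-phosphate isomerase, HK2, a hexokinase, and PFKM, a phosphofructokinase, fell by 1.40 ± 0.77, 1.29 ± 0.24, 1.17 ± 0.52, 1.07 ± 0.75 and 1.04. LDHA, the lactate dehydrogenase subunit that favours lactate formation, was at 13.41, 13.01 and 12.47 on feeders, against 13.05, 12.78 and 12.74 without. The groups overlapped and the difference was 0.11 ± 0.33 (adjusted p = 0.687). LDHB, the other main subunit, was at 13.75, 13.74 and 13.03, against 14.13, 14.06 and 14.05 (-0.57 ± 0.39, adjusted p = 0.00445). Of 14 genes of lactate and pyruvate handling PDK4, a kinase that inhibits pyruvate dehydrogenase, rose by 1.50 ± 0.62, while LDHB, EMB, a partner protein of monocarboxylate transporters, and DLAT, a subunit of pyruvate dehydrogenase, fell. PDK1 differed by -0.24 ± 0.34 and did not pass. In this list 7.14% rose and 21.4% fell, against 9.39% and 15.6% of all tested genes. When H1, H9 and HSF1 were left out in turn, 0, 0 and 6 glycolysis genes fell and 0, 0 and 3 rose, and 0, 0 and 4 genes of lactate and pyruvate handling fell.

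Genes of the TCA cycle, oxidative phosphorylation, the pentose phosphate and serine pathway and stress responses stayed mostly under the threshold. SUCLG2, MDH2 and IDH1 fell by 1.48, 0.75 and 0.56 among 16 genes of the TCA cycle list, and 0 rose. The share that fell, 18.8% with the cytosolic enzyme gene IDH1 counted, was near the 15.6% of all tested genes. Of 45 oxidative phosphorylation genes 1 rose and 0 fell. That gene, ATP5MC3 of the ATP synthase, differed by 0.63 ± 0.39, and by -0.01 with the mean of its 3 probe sets. In the pentose phosphate and serine pathway 5 of 14 genes fell, MTHFD1, RPE, TKT, PHGDH and PGD (-0.89, -1.13, -0.58, -0.82 and -0.82). In limma 0 of 15 genes of the integrated stress response and 0 of 14 of the unfolded protein response passed. The counts that fell without H1, H9 and HSF1 in turn were 0, 0 and 6 for the TCA cycle and for pentose phosphate and serine, 0, 0 and 8 for oxidative phosphorylation, and 0, 0 and 2 for the unfolded protein response, and 3 integrated stress response genes rose without HSF1.

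VEGFA, the main angiogenic growth factor and a hypoxia-inducible gene, was at 11.70, 11.38 and 12.24 on feeders, against 9.77, 9.41 and 9.93 without. The groups did not overlap, and VEGFA was 4.19-fold higher on feeders (2.07 ± 0.21) by the probe set that stood for it, with a call in 14 of 15 alternatives. Its other probe sets gave 1.27, 0.77 and -0.02, the last at mean levels of 8.33 on feeders and 8.34 without. LOX, a collagen cross-linking enzyme, rose by 1.57 ± 0.51, while MXI1 and BNIP3L fell by 1.06 each. The second probe set of BNIP3L gave 0.01, at mean levels of 9.64 on feeders and 9.63 without. ADM (0.15), BNIP3 (0.12), ANKRD37 (0.38) and EGLN3 (0.48), further hypoxia-inducible genes, did not pass. In all 2 of 16 members rose and 2 fell, 12.5% each, against 9.39% and 15.6% of all tested genes. In fits that lacked H1, H9 and HSF1 in turn, 0, 2 and 6 rose.

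Mesenchymal, membrane-cortex and actin genes rose on feeders in part of their lists. Of 38 fibroblast markers 14 rose and 2 fell, and the list median was 0.43 (0.86 in H1, 0.64 in H9 and -0.06 in HSF1). VIM, the intermediate filament vimentin, was at 13.61, 13.48 and 13.78 on feeders, against 11.04, 10.48 and 11.16 without (2.73 ± 0.24, highest adjusted p 0.00235). IGFBP7 rose by 3.35, DCN, the proteoglycan decorin, by 1.47 and COL5A2, a fibrillar collagen, by 1.69. CDH11, a mesenchymal cadherin, rose by 3.91 ± 0.45 on 1 probe set, while its other probe sets gave -1.03 to 0.29. The abundant collagen genes COL1A1 and COL1A2 differed by 0.46 and -0.15, and SPARC, a matrix glycoprotein, by 0.46 ± 0.81, and none of these passed. COL6A3 and POSTN, matrix proteins of connective tissue, fell by 1.02 and 0.85. Without H1, H9 and HSF1 in turn 5, 8 and 19 markers rose, and after quantile normalization 11.

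CAV1, the coat protein of caveolae, was at 12.31, 11.02 and 9.72 on feeders, against 8.27, 7.05 and 7.46 without (3.42 ± 1.01). CAV2, its partner, was at 11.74, 9.57 and 7.87, against 6.85, 5.61 and 6.87, so that the difference was 4.89 in H1, 3.96 in H9 and 1.00 in HSF1. With ANXA1, ANXA2, ANXA3, S100A2, S100A6, S100A10 and the hyaluronan receptor CD44, 9 of 27 genes of this list rose, and STOM fell (median 0.38). When H1, H9 and HSF1 were left out in turn, 4, 4 and 13 rose. TAGLN, an actin-binding protein of smooth muscle, was at 13.03, 12.15 and 10.23 on feeders, against 9.78, 7.67 and 9.77 without, which gave 3.25 in H1, 4.48 in H9 and 0.46 in HSF1. PDLIM7 (1.51), TPM2, a tropomyosin (1.18), ACTA2 (0.99), TAGLN2 (0.97) and CALD1 (0.78) completed the 6 of 18 actin genes that rose. In fits that lacked H1, H9 and HSF1 in turn, 0, 1 and 13 rose. Among 22 basement membrane and adhesion genes NID2, LAMA1 and NID1 fell by 1.73, 1.53 and 1.18, and CDH2, N-cadherin, and LAMA4 rose by 1.19 and 0.84. These shares, 13.6% lower and 9.09% higher, were near the 15.6% and 9.39% of all tested genes. Without H1, H9 and HSF1 in turn 0, 2 and 5 were lower and 0, 0 and 11 higher.

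**Figure D4:**
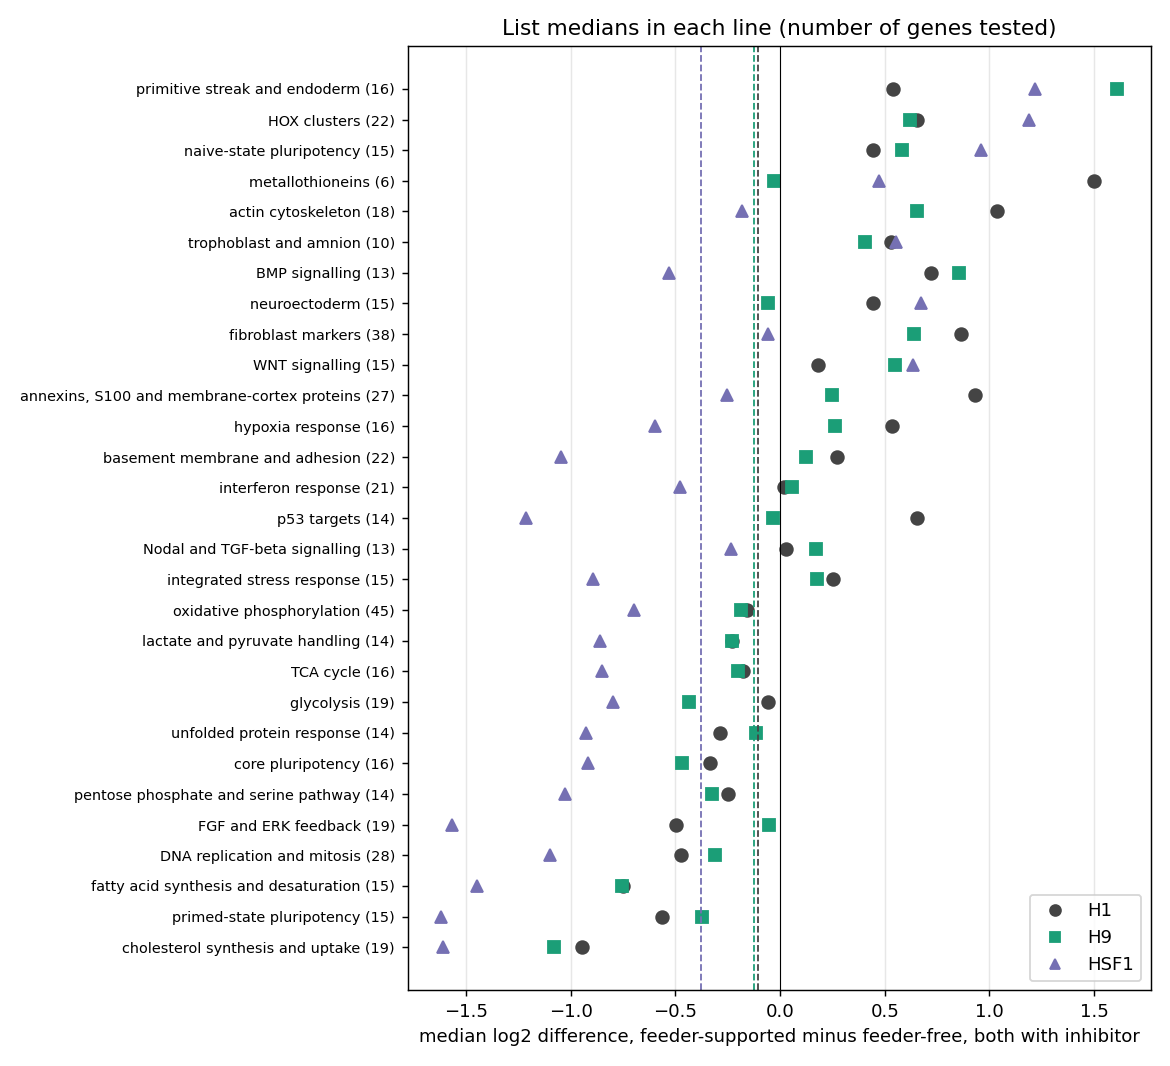
Median log2 difference of each gene list in each line, feeder-supported minus feeder-free with inhibitor, sorted by the median over lines, with the number of tested genes in brackets. Dashed lines mark the all-gene median of each line (-0.10, -0.12 and -0.38 in H1, H9 and HSF1). Sterol synthesis lies at the bottom and primitive streak at the top, and HSF1 marks lie left of the H1 and H9 marks in most lists of the lower part.

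Neural and extraembryonic markers gave a mixed picture. ZIC1, a zinc-finger factor of the neural plate, was at 8.78, 8.80 and 10.40 on feeders, against 5.67, 5.17 and 5.78 without (3.79 ± 0.77). This came from 1 of its 3 probe sets, while the others gave 0.77 and 0.03, the last at mean levels of 3.0 and 2.97. ZNF521, FABP7 and RORB, expressed in neural progenitors, fell by 1.92 ± 0.36, 1.99 ± 0.46 and 1.90 ± 0.85, and in all 4 of 15 neuroectoderm genes rose and 5 fell. GATA3, HAND1 and DLX5 rose by 1.32 ± 1.65, 0.90 ± 1.12 and 0.69 ± 0.20 among 10 trophoblast and amnion genes, and 0 fell. GATA3 was lower on feeders in HSF1 (-0.59) and HAND1 in H1 (-0.22). HAND1 kept its call in 3 of 14 alternatives, DLX5 in 7 of 14 and GATA3 in 8 of 14. After quantile normalization 0 members of this list rose. Without H1, and without H9, 0 trophoblast and amnion genes and 1 neuroectoderm gene rose.

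BST2, an interferon-induced membrane protein that tethers virions, was at 8.89, 9.90 and 9.22 on feeders, against 10.90, 11.30 and 11.39 without (-1.86 ± 0.41). IFIT1 fell by 1.02 ± 0.18, and the other 19 of 21 interferon response genes did not pass, among them ISG15 (0.05), IFITM1 (0.21) and B2M (-0.11). Of 14 p53 targets FAS rose by 1.00 ± 1.16 and CCNG1 fell by 0.63 ± 0.58. FAS was lower on feeders in HSF1 (-0.20), and it kept its call in 5 of 14 alternatives, with an adjusted p up to 0.609. Of 28 replication and mitosis genes TOP2A and MCM3 fell by 0.90 ± 0.36 and 0.85 ± 0.28 and 0 rose, at a list median of -0.64, or -0.31 after quantile normalization. MKI67, a proliferation marker, differed by -0.70 and did not pass. The shares that fell were 9.52% of interferon response genes and 7.14% of both p53 targets and replication genes, against 15.6% of all tested genes. Without H1, H9 and HSF1 in turn 0, 0 and 14 replication and mitosis genes fell. In the same fits 0, 0 and 3 interferon response genes fell, and 0, 0 and 3 p53 targets rose.

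The culture difference with the inhibitor was then set against that with DMSO, in the same lines on other arrays. With DMSO 5156 of 16760 genes passed (30.8%), 1883 higher and 3273 lower. Of the 4121 genes past the threshold with inhibitor that were also tested with DMSO, 3219 passed there in the same direction. The arrays differ, but they come from the same lines, and deviations of a line in a culture system correlated at 0.795 between treatments, so these counts are not independent. Between treatments the culture difference itself differed for 315 of 17218 genes (1.83%), 145 more positive and 170 more negative with inhibitor, from limma on the 3 per-line values. When H1, H9 and HSF1 were left out in turn, 143, 232 and 566 genes passed, and with all 12 arrays sharing a spread 3 passed.

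HMX2 had a culture difference of -3.55 with inhibitor and -1.32 with DMSO. It was at 4.50, 5.28 and 6.0 on feeders and at 6.06, 7.24 and 6.44 without feeders when DMSO was given. The feeder-free arrays with inhibitor were thus higher than those with DMSO in 3 of 3 lines, while the feeder-supported arrays overlapped between treatments (difference of differences -2.23, SE 0.199, adjusted p = 0.000425). CTCFL, LINC01234 and BCHE had differences of differences of -3.27, -2.14 and -1.85, and their feeder-supported levels were near background with either treatment. These 3 genes were the ones that passed in the 12-array fit.

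KCNK12, a potassium channel subunit, was at 6.36, 6.68 and 5.82 on feeders and at 5.38, 4.79 and 4.76 without feeders under inhibitor. With DMSO it was at 6.38, 6.65 and 6.09 on feeders and at 7.13, 6.85 and 6.90 without. The culture difference was positive in 3 of 3 lines with inhibitor and negative in 3 of 3 with DMSO (difference of differences 1.90, SE 0.176, adjusted p = 0.000425). The chemokine gene CCL26 had the same pattern, at 7.05, 6.86 and 6.11 on feeders and 6.02, 5.07 and 4.84 without under inhibitor, against 6.95, 6.60 and 6.28 and 7.59, 6.66 and 7.03 with DMSO. OTX2, a homeobox factor of the epiblast and forebrain, was at 8.98, 10.21 and 8.16 on feeders and at 8.42, 8.43 and 8.26 without under inhibitor. With DMSO it was at 9.55, 10.45 and 8.87 and at 10.14, 10.82 and 10.60. Its levels under inhibitor were lower than with DMSO in all 6 pairs, and the gap was wider without feeders (difference of differences 1.64, SE 0.174, adjusted p = 0.00109). PPP1R17, a phosphatase regulator, differed by 0.13 between culture systems with inhibitor and by -1.30 with DMSO, and EDIL3, a matrix protein that binds integrins, by -0.23 and 0.88.

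TPM2, TAGLN, BMP2, DKK4, EOMES and LDHA were also among the genes whose culture difference depended on treatment. TPM2 was at 11.83, 10.81 and 10.82 on feeders and at 10.27, 9.81 and 9.84 without under inhibitor, against 11.72, 10.83 and 10.87 and 11.33, 10.77 and 10.95 with DMSO. Feeder-supported levels were close between treatments, and feeder-free levels were lower with inhibitor in 3 of 3 lines (difference of differences 1.06, SE 0.104). TAGLN had a difference of differences of 1.48, BMP2 of 1.31, DKK4 of 1.32 and EOMES of 0.99. LDHA had a culture difference of 0.11 with inhibitor and -0.33 with DMSO (difference of differences 0.44, adjusted p = 0.00728).

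Metallothioneins, small proteins that bind zinc and copper, had opposite list medians with the 2 treatments, 0.66 with inhibitor and -0.74 with DMSO. The medians with inhibitor were 1.50 in H1, -0.03 in H9 and 0.48 in HSF1, and without H1, and without H9, 0 members passed. With inhibitor MT1F rose (1.28 ± 0.68) and the other 5 of 6 tested members did not pass, while with DMSO 5 of 7 fell. MT2A, the most widely expressed isoform, was at 11.77, 11.67 and 12.08 on feeders and at 10.42, 11.74 and 11.37 without under inhibitor. With DMSO it was at 11.22, 11.41 and 11.75 on feeders and at 12.08, 12.63 and 11.20 without. The difference of differences passed for MT1M (2.35), MT1G (1.73), MT1E (1.71), MT1H (1.40) and MT2A (1.17), 5 of 7 members, and for each of these it was smallest in HSF1. Probes of this family can share transcripts, since its members are close in sequence. MT1M levels lay under 5 on all of these arrays except the 3 feeder-free arrays with DMSO.

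**Figure D5:**
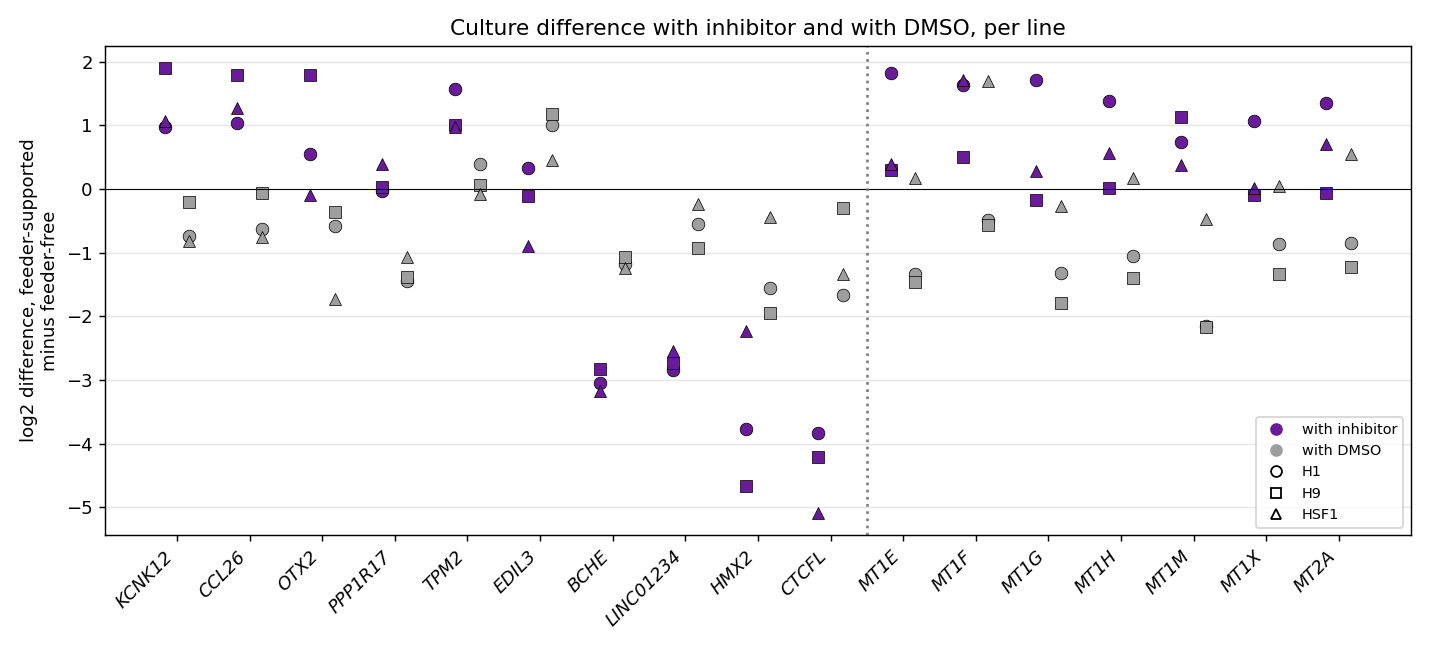
Log2 culture difference, feeder-supported minus feeder-free, per line with inhibitor (purple, left) and with DMSO (grey, right), for the 10 genes with the smallest p of the difference between treatments and for 7 metallothioneins to the right of the dotted line. KCNK12 and CCL26 lie above 0 with inhibitor and below 0 with DMSO in 3 of 3 lines, and CTCFL, HMX2, LINC01234 and BCHE are lower with inhibitor in each line.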

How the data were processed

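The table that the authors deposited holds log2 values of 54675 probe sets on 24 arrays. RMA made them, per the submitters' processing notes, and its version is not given in the sources used here. Groups were read from the array titles, and the line paired the arrays of the 2 culture systems, since each line gave 1 array for either system. The platform annotation gave the names of probe sets (41097 with 1 gene symbol, 1801 with several and 11777 with none; 41043 were found in the gene table through their Entrez identifier, with 0 symbols changed). Where several probe sets named a gene, the one whose mean over all 24 arrays was highest stood for it. Tests covered genes whose log2 level exceeded 5 on 3 or more of the arrays compared. Fits used limma 3.58.1 (R 4.3.3), with eBayes and its intensity trend after lmFit, on the 6 arrays of the contrast and with the line as a block. The difference between treatments was fitted on the 3 per-line values. The median total degrees of freedom after moderation were 380 for the first fit, from 2 residual ones, and 12.4 for the second. P-values were adjusted by Benjamini-Hochberg over all tested genes. The fit was also run on simulated data, with independent noise and spreads that were already moderated. That run checked that set changes were recovered, and it could not show whether 380 degrees of freedom make the calls here too liberal. No depth exists for arrays.

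The contrast, the 29 lists of 586 genes and the alternatives were chosen with earlier results of these data known. No probe set names 53 of the list genes alone, and these are not analysed here. The text names the 12 largest rises and 12 largest falls among genes that moved alike in 3 of 3 lines with a higher group mean of at least 7. It also names up to 4 members per list and 5 genes per direction of the difference between treatments, taken by smallest p, and 21 fixed genes. Further list members were named after their values were seen. Alternatives were other sets of arrays, blocks, scaling, probe sets, filters, moderation and array weights, an ACTB covariate, and leaving out each line. Nothing in the sources used here says whether the arrays of a line came from separate cultures. The p-values of the culture difference with inhibitor set the mean over lines against a spread drawn largely from genes of similar level. They therefore do not measure how far the 3 lines respond alike for a single gene. GREM1 passed (limma adjusted p = 1.24e-06) with differences of 4.17 in H1, 3.48 in H9 and -2.22 in HSF1.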

Additional observations from a re-analysis of the deposited data

Results flagged for a closer look

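For 24 named genes the culture difference (feeder-supported minus feeder-free) itself differed between inhibitor and DMSO, by limma on the 3 per-line values at an adjusted p under 0.05. The difference was more positive with inhibitor for the potassium channel gene KCNK12 (1.899), the chemokine gene CCL26 (1.848), the homeobox gene OTX2 (1.643), the actin-binding TAGLN (1.481), PPP1R17 (1.43), the WNT inhibitor DKK4 (1.318), the ligand BMP2 (1.315), the tropomyosin TPM2 (1.059), the retinoic acid hydroxylase CYP26A1 (1.024), the streak factor EOMES (0.989), the natriuretic peptide gene NPPB (0.953) and the Nodal inhibitor CER1 (0.802). VIM (0.671), PDK1 (0.655) and LDHA (0.439) had smaller differences of this sign. It was more negative with inhibitor for CTCFL (-3.267), HMX2 (-2.234), LINC01234 (-2.136), BCHE (-1.853), the basement membrane gene NID2 (-1.222), EDIL3 (-1.104), MEIOC (-0.986), CDH11 (-0.787) and TERF1 (-0.504). With all 12 arrays sharing a spread CTCFL, BCHE and LINC01234 passed and the other 21 did not.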

How the results depend on the processing

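The count of genes for the culture difference with inhibitor, 4177, was 997 without the line as a replicate block, 7855 with 12 arrays, 646 after quantile normalization, 1572 with a filter at 7, 6285 with array weights and 734 with 12 arrays and the ACTB covariate. Leaving out a line gave 198 to 5754. The number of genes whose culture difference differed between treatments, 315, was 3 with 12 arrays, 132 after quantile normalization, 156 with the mean of all probe sets, 487 with array weights and 74 without the intensity trend, and 143 to 566 without a line. Quantile normalization raised the share of higher genes among those past the threshold to 44.7% from 37.6%, and a common median lowered it to 27.7%. The differences of 6 named genes, ATP5MC3 the 1 of them past the threshold, turned sign under an alternative. NANOG was at 0.106 after quantile normalization, 0.059 with array weights and 0.048 with the ACTB covariate, and EDIL3 at 0.070, 0.005 and 0.039 in these fits. PDK1 was at 0.209 after quantile normalization and 0.161 over the mean of all probe sets, LDHA at -0.007 with a common median, and PPP1R17 at -0.079 with the covariate. ATP5MC3 was at -0.007 over the mean of all probe sets. Leaving out a line moved PPP1R17 between -0.000 and 0.211, EDIL3 between -0.508 and 0.107, NANOG between -0.227 and 0.107, and LDHA between -0.017 and 0.293. The cause was not tested. Calls of named genes ended most often without H1 (70) and without H9 (60), against 1 without HSF1, with the ACTB covariate (52), without the line as a block (44) and after quantile normalization (34). Of the list medians 419 moved by less than the spread between lines and 16 by more. Levels near background limit the differences of genes whose lower group lies under 5.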
